A study of Mus musculus with 8 samples.

Results

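Fndc4, Mpped2, Me1, Rab15, Echdc2, Slc30a4, Fxyd6, Wnt10b, Tnfsf11 and Ramp3 are 10 autosomal mouse genes that were chosen by their measured rise on arrays of Ezh2-deleted blood progenitors. They were taken from 20887 genes matched by a probe, of which 13187 were bright enough to be tested, and all 10 were among the tested genes. A gene entered the tests when its probe was well above background on at least 2 of the 8 arrays. A gene that passes that filter only through the arrays where it is high had to differ, so the size of the rise is given here as a description with no test, and nothing is supported by it.

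The arrays read RNA of 2 sorted bone marrow fractions. LSK cells, sorted as negative for lineage markers and positive for c-Kit and Sca-1, hold the stem and multipotent progenitor cells, and MEP are the progenitors of megakaryocytes and red cells. Marrow came from C57BL/6 donors of 4 genotypes, all of which carried Cre-ERT2, a Cre recombinase that is inactive until its ligand is given. The WT donors had Cre-ERT2 alone, the Ezh2Δ/Δ donors also had floxed Ezh2 alleles, the JAK2V617F donors carried the mutant kinase without floxed Ezh2, and the JAK2V617F/Ezh2Δ/Δ donors carried both. The marrow grew in lethally irradiated CD45.1+ recipients of wild-type genotype, so host cells of the marrow kept Ezh2. Ezh2 was removed 4 weeks after the transplant, and the fractions were sorted when 2 months had passed. Each of the 8 groups was 1 array of 20 ng Cy3-labelled RNA, with no replicate of its own. The number and age of the animals behind an array, and what drives JAK2V617F or Cre-ERT2, are not given in the sources used here.

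Ezh2 is the methyltransferase of polycomb repressive complex 2 (PRC2), which places the silencing mark H3K27me3 on histone H3, mostly at CpG-rich promoters of genes that a cell type does not use. In stem and progenitor cells the mark holds many genes of other lineages and tissues at a low level. JAK2V617F is the constantly active form of the kinase below the erythropoietin and thrombopoietin receptors, and it is the most common driver of myeloproliferative neoplasms.

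A level is the log2 processed signal minus the 75th percentile of the array, so a level of 0 is a bright probe and 1 unit is 2-fold. A value is called dim where the scanner software did not find the probe well above background. The lowest signal well above background lay at -4.00 to -3.35 in LSK and at -3.02 to -2.66 in MEP, so a dim value says only that the gene was at or below about that level. Levels of one gene are compared between arrays, never with the level of another gene. The share of probes found well above background was 39.8% to 48.8%, and arrays correlated at 0.969 to 0.987 within a cell type and at 0.942 to 0.965 across the cell types.

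The Ezh2 probe read 3.50 in WT, 3.36 in Ezh2Δ/Δ, 3.83 in JAK2V617F and 3.59 in JAK2V617F/Ezh2Δ/Δ LSK, and 4.14, 4.04, 4.23 and 3.57 in MEP in that order. The files do not place this probe on an exon, and the deletion is not checked by it. The Jak2 probe read 2.21 to 2.72 in LSK and 2.51 to 3.36 in MEP, and does not tell the mutant from the normal transcript. With Ezh2 deleted Xist read 1.57 to 2.99, and with Ezh2 intact it reached no more than -3.07. The Y-linked Eif2s3y read 2.53 to 3.55 with Ezh2 intact and was dim wherever Ezh2 was deleted. The sex of the marrow and the state of Ezh2 changed together on all 8 arrays and cannot be told apart, and this holds for each Ezh2 difference given here. The defining markers of each sort were found in it: all 9 LSK markers were above background on each LSK array, with a summed linear level of 288 to 434 times the 75th percentile against 21.9 to 42.4 in MEP, and all 7 MEP markers were above background on each MEP array, with a sum of 343 to 610 against 37.1 to 58.2 in LSK.

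The promoters of the 10 genes are shown because PRC2 is known for CpG-rich starts. In RefSeq (assembly GRCm38.p6) all 10 genes had a promoter window, running from 250 bases before the start to 50 bases after it. Over the 32851 windows of the table the median number of CpG dinucleotides was 7, and over the most upstream start of the 10 genes it was 16.5. The number was above the median of all windows in 9 of the 10. The richest and the poorest in CpG were Slc30a4 with 46 and Tnfsf11 with 7. Echdc2, which was higher on every deleted array, had 17, and Fxyd6, which was raised in JAK2 wild-type marrow, had 12. These 4 windows are printed 5′ to 3′ on the strand of the gene, with each CpG in capitals. Slc30a4 lies at chr2:122702614-122702913 on the minus strand, Tnfsf11 at chr14:78307994-78308293 on the minus strand, Echdc2 at chr4:108165187-108165486 on the plus strand and Fxyd6 at chr9:45369935-45370234 on the plus strand.
Slc30a4: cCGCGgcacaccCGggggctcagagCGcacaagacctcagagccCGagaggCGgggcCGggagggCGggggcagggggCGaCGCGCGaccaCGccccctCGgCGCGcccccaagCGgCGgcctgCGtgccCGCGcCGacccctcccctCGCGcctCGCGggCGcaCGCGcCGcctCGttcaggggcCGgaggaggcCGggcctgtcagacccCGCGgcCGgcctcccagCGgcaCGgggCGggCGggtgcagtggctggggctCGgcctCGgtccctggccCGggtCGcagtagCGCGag
Tnfsf11: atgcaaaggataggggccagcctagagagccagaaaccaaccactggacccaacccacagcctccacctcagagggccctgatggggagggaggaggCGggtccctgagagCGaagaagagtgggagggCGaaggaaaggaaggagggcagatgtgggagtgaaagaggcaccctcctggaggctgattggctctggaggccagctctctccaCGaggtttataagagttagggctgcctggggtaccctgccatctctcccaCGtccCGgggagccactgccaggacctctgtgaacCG
Echdc2: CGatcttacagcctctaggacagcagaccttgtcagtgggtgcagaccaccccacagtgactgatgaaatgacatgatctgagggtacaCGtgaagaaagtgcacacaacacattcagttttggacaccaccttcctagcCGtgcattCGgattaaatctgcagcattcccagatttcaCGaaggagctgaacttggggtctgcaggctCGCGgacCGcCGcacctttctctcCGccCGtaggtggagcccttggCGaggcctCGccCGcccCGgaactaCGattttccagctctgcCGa
Fxyd6: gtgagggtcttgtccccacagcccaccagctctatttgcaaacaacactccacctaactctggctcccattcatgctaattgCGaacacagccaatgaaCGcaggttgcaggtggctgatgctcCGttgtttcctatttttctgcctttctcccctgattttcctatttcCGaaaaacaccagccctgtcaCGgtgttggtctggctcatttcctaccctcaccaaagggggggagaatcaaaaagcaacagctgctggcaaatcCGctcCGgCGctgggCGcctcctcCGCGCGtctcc

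CpG clustered along the whole Slc30a4 window, where the observed number was 0.92 of that expected from its base composition, and was sparse in the Tnfsf11 window at 0.25. The ratio was 0.73 for Echdc2 and 0.57 for Fxyd6, against a median of 0.38 over all windows. Me1 with 35 and Rab15 with 38 CpG were also rich, and Wnt10b (18), Fndc4 (16), Ramp3 (15) and Mpped2 (10) lay between. The sequence GGGCGG, a core of the GC box, was found on either strand in 6 of the 10 windows (Mpped2, Me1, Rab15, Echdc2, Slc30a4 and Ramp3) and in 35.7% of all windows. The letters TATAAA, bound by the TATA-binding protein, were found in Tnfsf11 alone, against 13.6% of all windows, and CCAAT in Fxyd6 and Tnfsf11, against 37.4%. The E-box CACGTG was found in Echdc2 (7.15% of all windows) and TGACTCA, the letters bound by AP-1, in Me1 (5.20%), while AGATAAG, which erythroid Gata1 can bind, was in none of the 10 and in 3.04% of all windows. All motifs were searched on both strands of the most upstream window of each gene, while the shares are over all windows of the table. Fndc4, Mpped2, Me1 and Rab15 have several starts. The other windows held 17 CpG in Fndc4, 28 and 10 in Mpped2, 4 in Me1 and 3 to 8 in Rab15. One of the Mpped2 windows held TATAAA. The letters AGATAAG lay in the same window. GGGCGG and CACGTG each hold a CpG, so their counts and the CpG content are not separate measures.

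**Figure D1:**
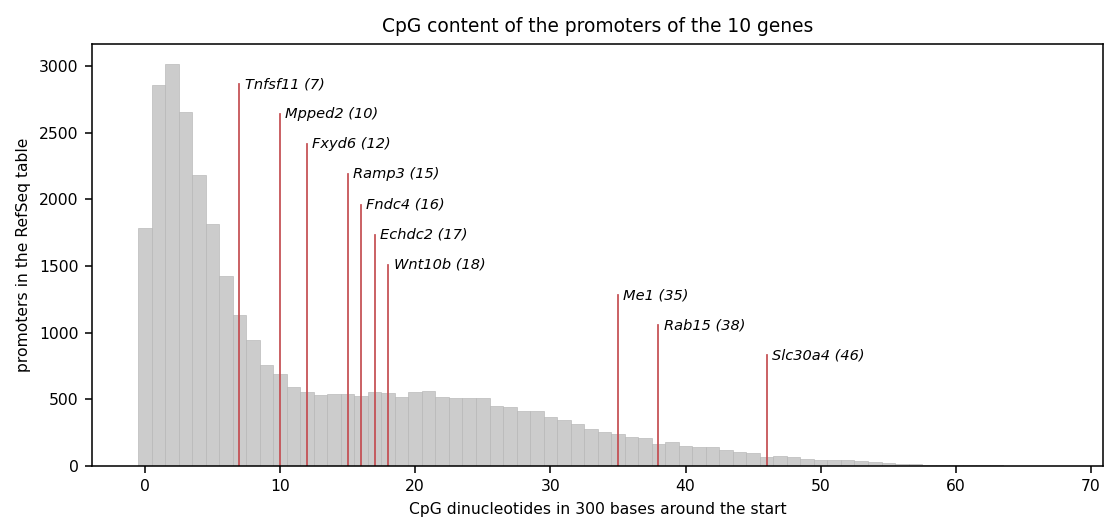
The horizontal axis is the number of CpG dinucleotides in the 300 bases around a transcription start and the vertical axis the number of RefSeq promoter windows with that number (grey bars), with a red line and its count for each of the 10 genes at its most upstream start. The genes run from 7 in Tnfsf11 to 46 in Slc30a4, around a median of 16.5 against 7 for all windows.

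The first group of genes makes signals or helps to receive them. Wnt10b encodes a secreted ligand of the Wnt pathway. LSK levels of Wnt10b were -3.29 in WT, -0.36 in Ezh2Δ/Δ, dim at -3.81 in JAK2V617F and -0.78 in JAK2V617F/Ezh2Δ/Δ. In MEP Wnt10b was dim at -2.56 in WT, -1.38 in Ezh2Δ/Δ, -1.89 in JAK2V617F and -0.56 in JAK2V617F/Ezh2Δ/Δ. All Ezh2-deleted arrays were above all intact ones, and the gap was wider in LSK. The deleted array exceeded its intact partner 7.62-fold in JAK2 wild-type LSK and at least 5.94-fold in JAK2V617F LSK, but at least 2.28-fold and 2.51-fold in the matching MEP pairs.

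Tnfsf11 encodes RANKL, the TNF family ligand that drives the formation of osteoclasts. LSK levels of Tnfsf11 were -2.29 in WT, 0.17 in Ezh2Δ/Δ, dim at -3.94 in JAK2V617F and 0.07 in JAK2V617F/Ezh2Δ/Δ. All 4 MEP arrays were dim, at -4.94, -4.66, -5.15 and -4.84 in the same order. The rise was therefore seen in LSK alone and on both JAK2 backgrounds, 5.47-fold in JAK2 wild-type marrow and at least 10.8-fold with JAK2V617F. A change below the detection limit of the MEP arrays would not have been seen.

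Ramp3 encodes a membrane partner that turns the calcitonin receptor-like receptor into a receptor for adrenomedullin. LSK levels of Ramp3 were -0.43 in WT, 2.07 in Ezh2Δ/Δ, dim at -5.49 in JAK2V617F and -0.73 in JAK2V617F/Ezh2Δ/Δ. In MEP Ramp3 was dim at -4.39 in WT, at -3.44 in Ezh2Δ/Δ and at -4.56 in JAK2V617F, and above background at -1.88 in JAK2V617F/Ezh2Δ/Δ. Deleted and intact arrays overlapped across the series, because WT LSK was higher than the double mutant LSK. Within pairs the rise was 5.67-fold in JAK2 wild-type LSK, at least 6.17-fold in JAK2V617F LSK and at least 2.07-fold in JAK2V617F MEP, and both arrays of the JAK2 wild-type MEP pair were dim. The MEP rise fell under 2-fold with normexp background correction (log2 0.60), quantile normalization (0.80) and a common floor (0.79).

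Fndc4 encodes a secreted protein with a fibronectin type III domain, a relative of the irisin precursor Fndc5. LSK levels of Fndc4 were -2.76 in WT, 0.19 in Ezh2Δ/Δ, dim at -5.27 in JAK2V617F and 0.58 in JAK2V617F/Ezh2Δ/Δ. In MEP Fndc4 was dim at -4.67 in WT, -0.19 in Ezh2Δ/Δ, dim at -4.92 in JAK2V617F and -0.03 in JAK2V617F/Ezh2Δ/Δ. The 4 deleted arrays lay close together in both cell types, and 3 of the 4 intact arrays were dim. The rise was 7.71-fold in JAK2 wild-type LSK, at least 15.3-fold in JAK2V617F LSK, at least 5.85-fold in JAK2 wild-type MEP and at least 7.48-fold in JAK2V617F MEP. A second Fndc4 probe was dim on all 8 arrays and shows no rise.

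The second group moves ions and metals. Slc30a4 encodes the zinc transporter ZnT4, which carries zinc out of the cytosol into vesicles. LSK levels of Slc30a4 were 2.18 in WT, 2.78 in Ezh2Δ/Δ, 1.68 in JAK2V617F and 2.57 in JAK2V617F/Ezh2Δ/Δ. In MEP Slc30a4 was dim at -2.68 in WT, 0.71 in Ezh2Δ/Δ, dim at -3.46 in JAK2V617F and 0.42 in JAK2V617F/Ezh2Δ/Δ. The gene was thus bright on every LSK array whatever the genotype, and above background in MEP where Ezh2 was deleted. The deleted MEP array exceeded its partner at least 10.4-fold in JAK2 wild-type marrow and at least 10.2-fold with JAK2V617F, against 1.51-fold and 1.85-fold in LSK.

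Fxyd6 encodes a small membrane protein of the FXYD family, which tunes the sodium pump. LSK levels of Fxyd6 were dim at -4.13 in WT, -0.0049 in Ezh2Δ/Δ, dim at -5.28 in JAK2V617F and -2.97 in JAK2V617F/Ezh2Δ/Δ. In MEP Fxyd6 was dim at -4.67 in WT, -0.31 in Ezh2Δ/Δ, dim at -4.91 in JAK2V617F and dim at -3.69 in JAK2V617F/Ezh2Δ/Δ. Both Ezh2Δ/Δ arrays stood far above the other 6, and the double mutant arrays stayed near the detection limit. The rise was at least 15.9-fold in JAK2 wild-type LSK and at least 5.39-fold in JAK2 wild-type MEP. In JAK2V617F LSK the difference was at least 1.31-fold, which did not reach 2-fold, and both arrays of the JAK2V617F MEP pair were dim. All 4 intact arrays were dim, and the mean of the 4 deleted arrays was at least 2.86-fold above their detection limit.

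The third group holds enzymes. Me1, the cytosolic malic enzyme that makes NADPH, was at -2.47 in WT, -1.10 in Ezh2Δ/Δ, -3.14 in JAK2V617F and -0.31 in JAK2V617F/Ezh2Δ/Δ LSK. In MEP Me1 was dim at -5.00 in WT, -1.08 in Ezh2Δ/Δ, dim at -5.21 in JAK2V617F and -0.16 in JAK2V617F/Ezh2Δ/Δ. Every deleted array was above every intact one, and the highest level of each cell type was in the double mutant. The rise was 2.58-fold in JAK2 wild-type LSK, 7.10-fold in JAK2V617F LSK, at least 3.15-fold in JAK2 wild-type MEP and at least 6.82-fold in JAK2V617F MEP. A second probe rose in the same order, from -3.31 to -1.99 and from dim at -4.07 to -1.11 in LSK, and from dim at -4.75 to -1.74 and from dim at -5.01 to -0.92 in MEP. The third probe was dim apart from the JAK2V617F/Ezh2Δ/Δ arrays, where it read -2.42 in LSK and -2.26 in MEP.

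Echdc2 encodes a mitochondrial protein of the enoyl-CoA hydratase family. LSK levels of Echdc2 were -1.27 in WT, 0.95 in Ezh2Δ/Δ, -0.94 in JAK2V617F and 1.83 in JAK2V617F/Ezh2Δ/Δ. In MEP Echdc2 was -1.63 in WT, 1.85 in Ezh2Δ/Δ, -1.05 in JAK2V617F and 2.31 in JAK2V617F/Ezh2Δ/Δ. This probe was above background on all 8 arrays, so the folds are measured and not bounds. They were 4.66-fold and 6.81-fold in LSK and 11.2-fold and 10.3-fold in MEP, each for JAK2 wild-type and then JAK2V617F marrow. A second probe, dimmer on average, rose from -2.79 to -1.13 and from dim at -3.33 to -0.09 in LSK. In MEP it rose from -1.04 to -0.06 and from -2.25 to 0.22. On this probe the rise in JAK2 wild-type MEP stayed under 2-fold. Its rise was smaller in MEP than in LSK on each JAK2 background, the opposite order to the first probe. A larger rise in MEP was thus seen on 1 probe only.

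Mpped2 encodes a metallophosphoesterase best known from the nervous system. LSK levels of Mpped2 were -2.31 in WT, -0.18 in Ezh2Δ/Δ, dim at -5.32 in JAK2V617F and -0.68 in JAK2V617F/Ezh2Δ/Δ. In MEP Mpped2 was dim at -2.58 in WT, 0.04 in Ezh2Δ/Δ, dim at -4.22 in JAK2V617F and -0.15 in JAK2V617F/Ezh2Δ/Δ. The deleted arrays agreed within 1 unit of each other. In LSK the intact array was above background without JAK2V617F and dim with it. Both intact MEP arrays were dim, so their order is not measured. The rise was 4.37-fold in JAK2 wild-type LSK and at least 6.38-fold, 6.14-fold and 6.89-fold in JAK2V617F LSK, JAK2 wild-type MEP and JAK2V617F MEP.

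Rab15 encodes a small GTPase of endosome recycling. LSK levels of Rab15 were -3.33 in WT, -0.43 in Ezh2Δ/Δ, dim at -5.68 in JAK2V617F and -0.70 in JAK2V617F/Ezh2Δ/Δ. In MEP Rab15 was dim at -5.06 in WT, at -3.29 in Ezh2Δ/Δ and at -4.75 in JAK2V617F, and just above background at -2.96 in JAK2V617F/Ezh2Δ/Δ. The rise was seen in LSK, 7.47-fold in JAK2 wild-type marrow and at least 6.27-fold with JAK2V617F. The MEP pairs give no fold, since the double mutant array lay at the detection limit of its partner. A second Rab15 probe was dim on all 8 arrays.

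**Figure D2:**
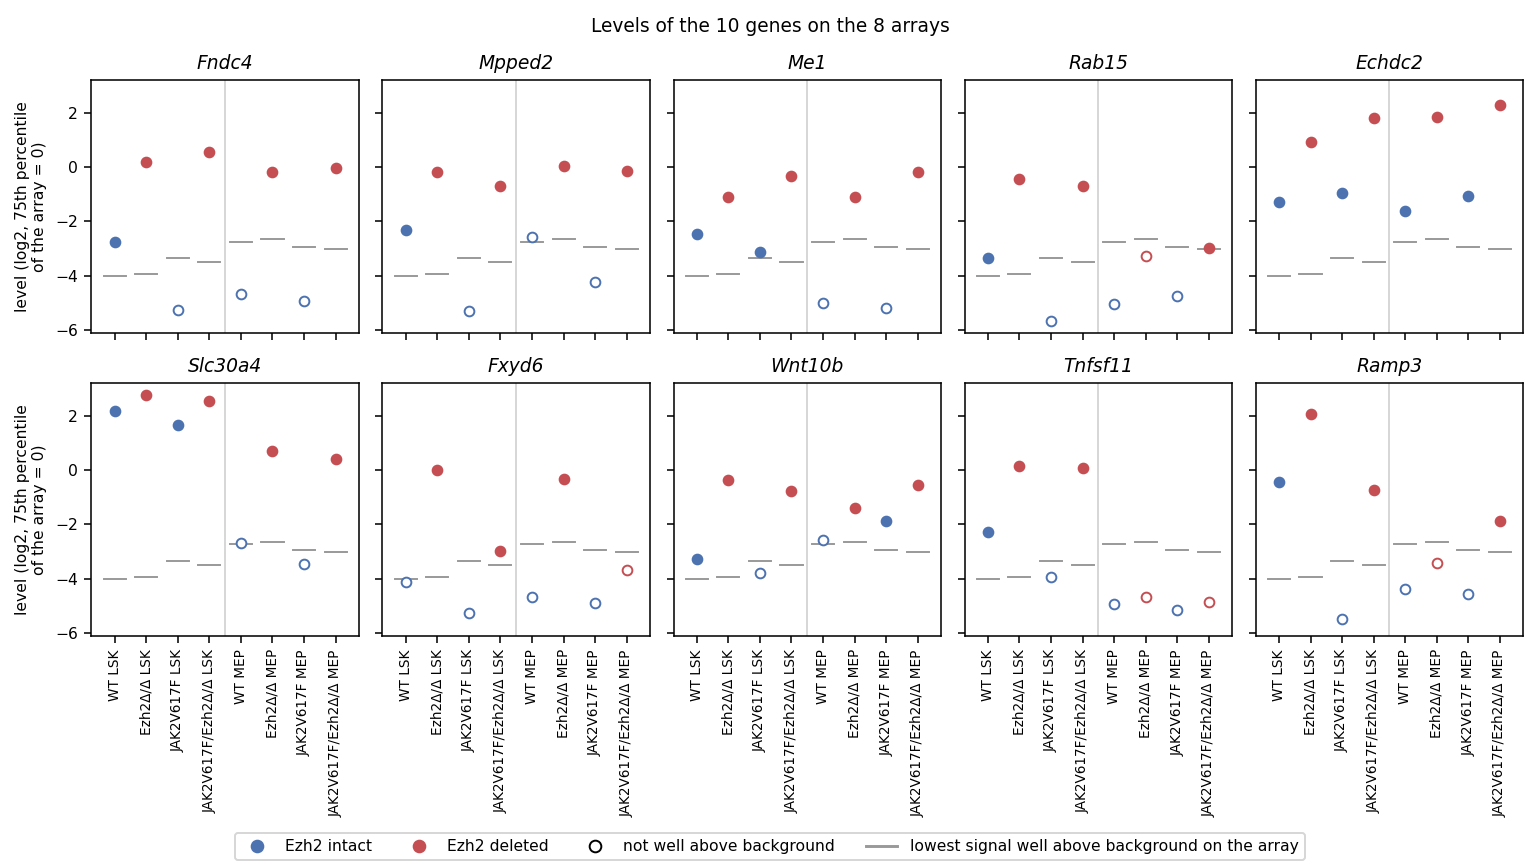
Each panel is 1 gene, the vertical axis is the level (log2, 0 at the 75th percentile of the array) and the horizontal axis holds the 8 arrays, LSK to the left of the grey line and MEP to the right. Red points are Ezh2-deleted and blue points Ezh2-intact arrays, open points are dim, and the short grey bars mark the lowest signal well above background on each array. Echdc2 is filled on all 8 arrays, Slc30a4 is high in LSK of every genotype, and Tnfsf11 is open on all 4 MEP arrays.

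Over the 10 genes and 4 intact arrays, 15 of 40 values were above background, against 35 of 40 on the deleted arrays. Of all tested genes, 84.0% to 96.1% were above background on an intact array and 84.9% to 97.1% on a deleted one. The choice of the genes enters this contrast, and nothing is read from it. A gene was counted as raised in a pair where the deleted array was above background and at least 2-fold over its intact partner, with a dim partner set at the higher of its own value and the detection limit of its array. By that count 9 of the 10 were raised in JAK2 wild-type LSK, where 3.81% of all tested genes were. In JAK2V617F LSK 8 were raised (4.29% of tested genes), in JAK2 wild-type MEP 7 (2.84%) and in JAK2V617F MEP 7 (4.53%). The choice of the genes fixed these shares, and nothing is read from their distance to the background. The median difference of the 10 was 2.48, 2.66, 2.04 and 2.05 in that order of pairs, against -0.08, -0.11, -0.04 and -0.17 over all tested genes. The last gene inside the 2-fold limit was Ramp3 in JAK2V617F MEP at 1.05 on the log2 scale, and the first outside it was Slc30a4 in JAK2V617F LSK at 0.89.

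The genes differed in the pairs that showed the rise. Fndc4, Mpped2, Me1, Echdc2 and Wnt10b were raised in all 4 pairs, that is in both cell types and on both JAK2 backgrounds, as were 35 of all tested genes (0.265%). With normexp Wnt10b fell under 2-fold in JAK2 wild-type and JAK2V617F MEP (log2 0.48 and 0.86), and Me1 in JAK2 wild-type LSK (0.78). With the mean of all probes Fndc4 fell under it in JAK2 wild-type and JAK2V617F MEP (0.17 and 0.97), and Me1 in JAK2 wild-type MEP (0.32). The second Echdc2 probe, taken alone, was under 2-fold in JAK2 wild-type MEP. Ramp3 was raised in 3 pairs, both of LSK and JAK2V617F MEP. Tnfsf11 and Rab15 were raised in both LSK pairs and in neither MEP pair, though Rab15 was under 2-fold in JAK2V617F LSK with the mean of all probes (0.14). Slc30a4 was raised in both MEP pairs and by less than 2-fold in LSK, where it was already bright. Fxyd6 was raised in JAK2 wild-type marrow of both cell types and not with JAK2V617F. No gene of the 10 was raised on the JAK2V617F background alone, although within MEP this was so for Ramp3. Where both arrays are dim, a missing rise is a limit of detection and not a measured equality.

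**Figure D3:**
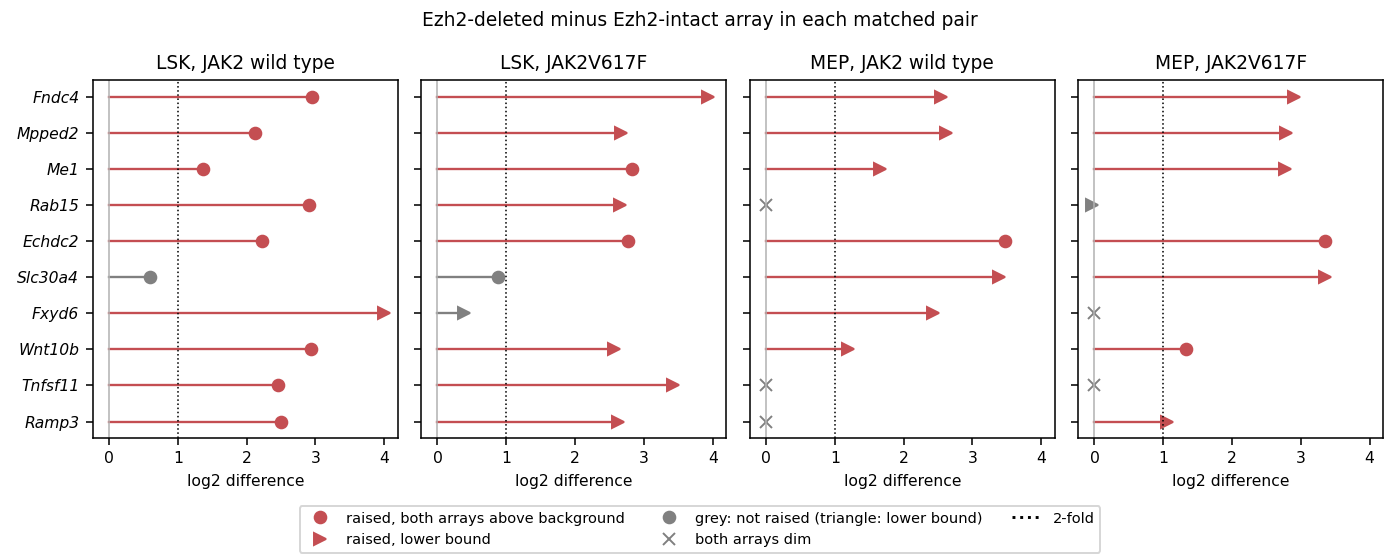
The 4 panels are the 4 matched pairs, the horizontal axis is the log2 difference between the Ezh2-deleted and the Ezh2-intact array, and each line is 1 gene. Circles are measured differences, triangles are lower bounds where the intact array was dim, crosses mark pairs with both arrays dim, and the dotted line is 2-fold. In red are the 9, 8, 7 and 7 genes counted as raised.

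In a fit over the 8 arrays with terms for the cell type and for both genotypes, the Ezh2 difference, averaged over the 4 pairs, was 4.54 for Fndc4, 3.37 for Mpped2, 3.29 for Me1, 3.00 for Fxyd6, 2.96 for Echdc2, 2.86 for Rab15, 2.72 for Ramp3, 2.19 for Slc30a4, 2.12 for Wnt10b and 1.76 for Tnfsf11. These are log2 differences of the values as measured, dim ones included, with a median of 2.91 against -0.11 over all tested genes. The genes were selected on this contrast, so no test is given.

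Cell type was not used in the choice and could be tested. Slc30a4 and Tnfsf11 passed the threshold downwards in MEP, that is a Benjamini-Hochberg adjusted p under 0.05 over all tested genes with limma, as did 20.1% of all tested genes. Slc30a4 had a mean of -1.25 in MEP and 2.31 in LSK (limma log2 difference -3.56, SE 0.54, n = 4 against 4, adjusted p = 0.00167), with 2 of the 4 MEP arrays dim. Tnfsf11 entered the tests through LSK arrays alone, since all 4 MEP arrays were dim, so it had to differ and its call is not counted as support. Its mean was -1.50 in LSK, at least 2.54-fold above the detection limit of the MEP arrays. With dim values raised to 1 common floor its difference was -1.49 and it was not called. None of the 10 was called higher in MEP (19.8% of tested genes were). Ramp3 at -2.42 (SE 0.97, adjusted p = 0.0803 with limma) and Rab15 at -1.48 (SE 0.57, adjusted p = 0.0712) did not pass, nor did Me1 at -1.11 (SE 0.51, adjusted p = 0.117). For the 5 others the differences lay between -0.64 for Fndc4 and 0.46 for Wnt10b. Without the JAK2V617F LSK array, on which 7 of the 10 were dim, Fndc4, Rab15 and Ramp3 were called lower in MEP too. In that fit 2512 of 13138 tested genes were called lower.

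JAK2V617F was the other contrast free of the choice. None of the 10 genes was called in either direction with limma, where 0.22% of tested genes were called higher and 0.106% lower, and 3 had an unadjusted p under 0.05, as did 10.9% of tested genes. Fxyd6 had a mean of -4.21 on the JAK2V617F arrays and -2.28 on the others (log2 difference -1.93, SE 0.49, n = 4 against 4, adjusted p = 0.222 with limma). Mpped2 differed by -1.34 (SE 0.42, adjusted p = 0.330 with limma) and Echdc2 by 0.56 (SE 0.23, adjusted p = 0.439 with limma). The Echdc2 probe used had the same sign in the intact and the deleted arrays of both cell types. The second Echdc2 probe was lower with JAK2V617F on the intact arrays. It went from -2.79 to dim at -3.33 in LSK and from -1.04 to -2.25 in MEP. Ramp3 was lower on the JAK2V617F array in both LSK pairs, but over all arrays its difference was -1.61 with an SE of 0.97 (adjusted p = 0.602 with limma). The summed level of 8 granulocyte markers moved with JAK2V617F, from 576 to 1836 between the intact LSK arrays and from 22.8 to 166 between the intact MEP arrays, and its part in these values was not tested.

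Whether the Ezh2 difference itself depended on cell type or JAK2 background was tested with an added term for each. The genes were chosen on the Ezh2 differences that these terms compare, so the values are descriptions with the p of the fit beside them, and nothing is supported by them. None of the 10 passed for cell type, where 0% of tested genes were called higher and 0.00758% lower in MEP. An unadjusted p under 0.05 was found for 6, and for 3.66% of all tested genes. Slc30a4 came nearest, with an Ezh2 difference of 3.63 in MEP and 0.74 in LSK (difference 2.89, SE 0.37, adjusted p = 0.0937 with limma). Tnfsf11 had 0.29 in MEP and 3.23 in LSK (difference -2.94, SE 0.57, adjusted p = 0.324 with limma), where the MEP value lies wholly below background. The Slc30a4 difference was called with a variance prior that follows expression (limma, adjusted p = 0.0199), where 2 of 13187 tested genes were called higher and 1 lower. Without the JAK2V617F LSK array it was 2.93. Without the WT LSK array the difference was 2.86 for Slc30a4, -3.40 for Rab15 and -3.68 for Tnfsf11. Calls made without either array are not counted. The intact LSK side was then 1 array, and calls over all tested genes rose as well. Of the MEP arrays 2 were dim for Slc30a4, 3 for Rab15 and all 4 for Tnfsf11, so the MEP side of the latter pair is hardly measured.

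For the JAK2 background none of the 10 passed, as was so for all tested genes in both directions (0% called), and 3 had an unadjusted p under 0.05. Fxyd6 had an Ezh2 difference of 1.77 with JAK2V617F and 4.24 without it (difference -2.48, SE 0.44, adjusted p = 0.460 with limma). The opposite order was seen for Mpped2, at 4.36 with JAK2V617F and 2.37 without (difference 1.99, SE 0.48, adjusted p = 0.877), and for Fndc4, at 5.37 and 3.71 (difference 1.66, SE 0.69, adjusted p = 0.970 with limma). In both genes the 2 intact JAK2V617F arrays were dim, so the larger difference rests on values below background. Over all tested genes 482 had an unadjusted p under 0.05 for the cell type term and 441 for the JAK2 term, and 1 and 0 passed after adjustment. The dependence of each rise on cell type or JAK2 background is therefore given by the values above and not by a passed test.

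Genes that work with the 10 were tested for Ezh2 deletion, since they had not been chosen by the rule. Of 168 genes in 11 lists, 113 were tested, and with limma 2 were called higher and 0 lower on the deleted arrays, where 0.66% and 0.0455% of all tested genes were, with 29 of the 113 (25.7%) at an unadjusted p under 0.05 against 18.0% of all tested genes. Fzd3, a Frizzled receptor of Wnt ligands, read -0.82 in WT, 0.52 in Ezh2Δ/Δ, -1.69 in JAK2V617F and 0.51 in JAK2V617F/Ezh2Δ/Δ LSK, and -0.21, 0.96, -1.75 and 0.92 in MEP in that order. It was higher on the deleted array of all 4 pairs (log2 difference 1.85, SE 0.27, n = 4 against 4, adjusted p = 0.0311 with limma). Ramp2, of the same family as Ramp3, read -1.24, 0.63, -1.41 and 0.65 in LSK and was dim on all 4 MEP arrays (1.74, SE 0.24, adjusted p = 0.0277 with limma). Neither call was made after quantile normalization, with a common floor, with no filter on dim probes, with the matched pairs of arrays as a block, or without the JAK2V617F/Ezh2Δ/Δ LSK or the JAK2V617F MEP array.

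By list, none of 6 tested Wnt ligands was called (median 0.07, with Wnt5b the furthest from 0 at 0.50, adjusted p = 0.231 with limma), and 1 of 16 Wnt receptors and targets was (median 0.30). Lef1, a transcription factor of the pathway, had the furthest uncalled value there at 1.95. It was above background on the 2 Ezh2Δ/Δ arrays alone, at -1.53 in LSK and -1.59 in MEP, so it was tested only because of deleted arrays and the difference is against dim values. None of 9 other TNF family ligands and none of 3 genes of the RANK axis was called (medians 0.10 and -0.08), with Ltb at 0.58 and Nfatc1 at -0.13 the furthest from 0. Tnfrsf11a, the RANK receptor itself, was above background on all 8 arrays, between -1.35 and -0.69, with a difference of 0.10 (adjusted p = 0.727 with limma). Of 6 tested genes of the RAMP and calcitonin family, 1 was called (median 0.15), and Calcrl, the receptor that Ramp3 needs, differed by 0.24 (adjusted p = 0.628). Calcrl was above background in LSK at -2.03 in WT, -1.80 in Ezh2Δ/Δ and -2.51 in JAK2V617F/Ezh2Δ/Δ, and dim in JAK2V617F LSK and all 4 MEP. Ackr3, a scavenger receptor for CXCL12 and adrenomedullin, had the largest uncalled difference of these lists at 2.53. It was above background in Ezh2Δ/Δ LSK at -1.56 and in JAK2V617F/Ezh2Δ/Δ LSK at -2.24 and dim on the 6 other arrays, so the same holds for it, and it was called with normexp background correction and with a variance trend.

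None of 7 FXYD and sodium pump genes was called (median 0.03), with Atp1b1, the beta subunit of the pump, at 1.86 (adjusted p = 0.0956 with limma). None of 21 zinc transport genes (median -0.24), 12 genes of malate use and NADPH supply (-0.32), 17 Rab genes and partners (-0.17), 12 genes of the enoyl-CoA hydratase family (-0.22) and 4 relatives of Fndc4 and Mpped2 (-0.17) was called, beside a median of -0.11 over all tested genes. The values furthest from 0 were 1.04 for the metallothionein gene Mt2, -0.73 for G6pdx, 0.67 for Rab3c and -0.42 for Fndc3b. Echdc3 was the furthest in its family at -1.75 (adjusted p = 0.0771 with limma), opposite in sign to the 2.96 of Echdc2, and passed with normexp background correction and with a variance trend.

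Markers of other blood cells moved on the same arrays as some of the 10. The summed linear level of 9 B-lineage markers was 16.9 times the 75th percentile in WT, 65.7 in Ezh2Δ/Δ, 22.3 in JAK2V617F and 21.2 in JAK2V617F/Ezh2Δ/Δ LSK. In MEP the sum was 3.15, 51.8, 3.33 and 6.93 in that order. Of the 9, between 2 and 7 were above background on an array, and Ms4a1 and Pax5 were dim on all 8. The sum was highest on the 2 Ezh2Δ/Δ arrays, where Fxyd6 was highest too. In bulk RNA more cells of a type and more RNA per cell cannot be told apart, and the part of B-lineage cells in the Fxyd6 values was not tested. In the JAK2V617F LSK pair, with sums of 22.3 and 21.2, the markers above background numbered 2 on the intact and 5 on the deleted array. Fndc4, Mpped2, Me1, Echdc2, Wnt10b, Tnfsf11, Rab15 and Ramp3 were raised in that pair, and the part of B-lineage cells in their values was not tested. Of 9 T and NK cell markers between 3 and 5 were above background on an array, and Cd3d, Cd3g and Ncr1 were dim on all 8. The sum over these markers was 17.3 to 28.5 in LSK and 9.46 to 11.5 in MEP. Of 9 stromal, bone and endothelial markers between 4 and 6 were above background on an array, and Col1a1 and Cdh5 were dim on all 8. Their sum over the list was 24.8 to 47.0 in LSK and 38.2 to 51.4 in MEP.

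For 9 of the 10 the gene with the most similar pattern over the 8 arrays was found among 12721 other autosomal genes, by Pearson correlation with dim values raised to the detection limit. The arrays are shared between cell types and genotypes, so these values are descriptions with no p. Tnfsf11 was nearest to Il7r, the interleukin 7 receptor of lymphoid progenitors, at 0.995. Il7r read -2.66 in WT, -0.48 in Ezh2Δ/Δ and -0.80 in JAK2V617F/Ezh2Δ/Δ LSK, was dim in JAK2V617F LSK and in all 4 MEP, and so was above background on the same 3 arrays as Tnfsf11.

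Slc30a4 was nearest to Macroh2a3 (0.993), Me1 to 1500011B03Rik (0.987), Rab15 to 4933402N22Rik (0.982), Echdc2 to Mlf1 (0.981), Ramp3 to Hey1 (0.978), Mpped2 to Pbx3 (0.971), Fndc4 to Ppm1e (0.963) and Wnt10b to Ahnak (0.949). Among the 10 themselves the closest were Fndc4 with Me1 (0.965), Rab15 with Tnfsf11 (0.959), Fndc4 with Mpped2 (0.957) and Me1 with Echdc2 (0.951). The least alike were Slc30a4 and Fxyd6 (0.169). The shared rise on deleted arrays, by which the genes were chosen, enters each of these correlations.

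**Figure D4:**
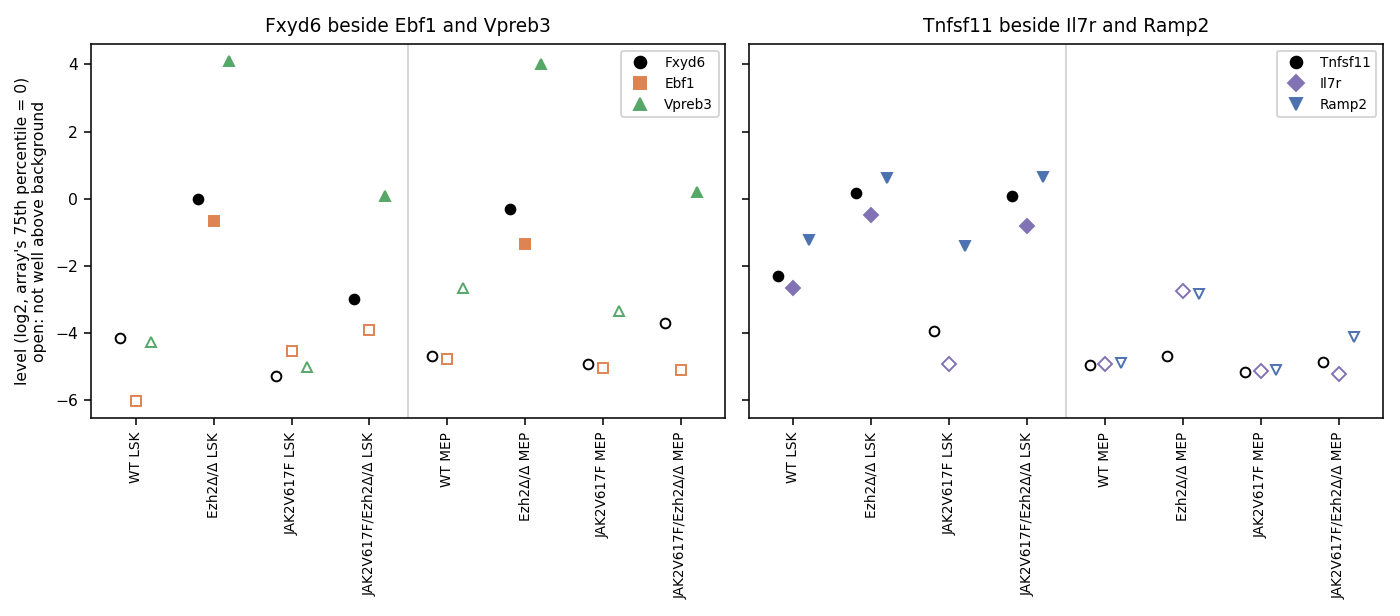
The vertical axis is the level (log2, 0 at the 75th percentile of the array), the horizontal axis holds the 8 arrays, and open symbols are dim. The left panel sets Fxyd6 beside the B-lineage genes Ebf1 and Vpreb3, which are both highest on the 2 Ezh2Δ/Δ arrays. These were picked from the 9 B-lineage markers after their values were seen. Vpreb1 and Igll1, not shown, were highest there too. Cd79b was highest in JAK2V617F LSK at 4.37, and Ms4a1 and Pax5 were dim on all 8 arrays. The right panel sets Tnfsf11 beside Il7r and Ramp2: Tnfsf11 and Il7r are filled on the same 3 LSK arrays, and all of them are open on the MEP arrays.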

How the data were processed

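Arrays were Agilent 1-colour mouse arrays. The deposited scanner files hold intensity values, made with Feature Extraction 10.7.1.1 per the file headers, with no normalization between arrays. The authors' series table, deposited as a linear ratio, matched the processed signal divided by 1 factor per array and served as an alternative. All 8 arrays were on 1 slide, so slide position and group cannot be told apart.

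The processed signal, averaged over the uniform spots of a probe, was log2-transformed, and the 75th percentile of the same array was subtracted. Of 55681 probes 27509 matched 1 of 20887 genes through the accession in the file and a RefSeq table (GRCm38.p6), and 28172 did not. Where several probes matched a gene the brightest on average was used, and the other probes of the 10 genes are given beside it. Genes whose probe was well above background, by the deposited flag, on at least 2 of 8 arrays were tested. For bounds, pairs and correlations a dim value was set at the detection limit of its array, that is the lowest probe signal found well above background there. The fits kept values as measured.

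Fits used limma 3.58.1 in R 4.3.3, with additive terms for cell type, JAK2 and Ezh2 genotype and 1 interaction at a time, and p adjusted by Benjamini-Hochberg over 13187 genes. The scripts were tested on simulated data. The number of arrays limits the precision. Whether the arrays of a side came from separate animals is not given in the sources used here. With 1 array a group, no spread between replicates could be measured. The SE and p-values measure how far the arrays depart from the fitted terms, which includes any interaction left out of the fit. The members, lists and tests were chosen with earlier results of these data known. The text names the 10 genes, the checks Ezh2, Jak2, Xist and Eif2s3y, each called relative, the relative with the largest Ezh2 difference of each list, the partners Calcrl and Tnfrsf11a and the most similar gene. Results for a few genes under this rule are left out. The B-lineage and lymphoid genes Ebf1 and Vpreb3 were added to a plot after their values were seen. Promoter sequences are from RefSeq (GRCm38.p6).

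Alternatives were background correction by normexp, normalization by quantiles, the values of the series table, another percentile, the mean of all probes, non-uniform spots kept, a common floor, other filters, a variance trend, an adjusted p under 0.10, other folds and leaving out each array. A floor for each array in the fits, and a block for the matched pairs that differ in the tested factor alone, were added after seeing the data.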

Additional observations from a re-analysis of the deposited data

Results flagged for a closer look

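Wnt10b differed with JAK2V617F in opposite ways in the 2 cell types. It was higher on the JAK2V617F array in both MEP pairs, by 0.82 and 0.68 on the log2 scale, and lower in both LSK pairs, at -0.43 and -0.07. The mean difference between the cell types was 1.00, several of the values behind it are dim, and the difference was not tested.

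Echdc2 was higher in MEP than in LSK on the Ezh2-deleted arrays, by 0.48 in JAK2 wild-type and 0.90 in JAK2V617F marrow, and lower on the intact ones, at -0.12 and -0.36. The mean difference of 0.93 is also the difference of the Ezh2 effect between MEP and LSK, which did not pass with limma (SE 0.37, adjusted p = 1.00). Both results stood out because all pairs of one kind moved one way and all pairs of the other kind the opposite way. For Echdc2 this held on the brighter probe alone. The second Echdc2 probe was higher in MEP than in LSK on the intact arrays too. It read -1.04 against -2.79 in WT and -2.25 against dim at -3.33 in JAK2V617F.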

How the results depend on the processing

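With 1 array a group and many intact values at the detection limit, most rises are lower bounds, and a small change below background cannot be seen. The number of the 10 genes raised in a pair ran from 8 to 10 in JAK2 wild-type LSK, 7 to 9 in JAK2V617F LSK, and 5 to 7 in each MEP pair over 10 other settings. The lowest MEP values came with normexp, the mean of all probes or a 3-fold limit. The number called between MEP and LSK was 2, with 1 under a common floor, 4 at an adjusted p under 0.10, and 2 to 5 when an array was left out (5 without JAK2V617F LSK). No gene was called for JAK2V617F or its interaction in any setting. For the interaction with cell type 1 was called with a variance trend and 1 at an adjusted p under 0.10 (Slc30a4 in each). Leaving out an array left 1 array on a side of that interaction. Some of the 10 passed without WT LSK or without JAK2V617F LSK, as did more of all tested genes, and nothing is read from that. The 2 relatives called for Ezh2 deletion became 4 with normexp, 0 with quantile normalization, 0 with a common floor, 0 with no filter, 0 with the matched pairs as a block, 1 with a floor for each array, 5 with a variance trend and 5 at an adjusted p under 0.10. Leaving out an array gave 0 to 3 of them, with 0 without JAK2V617F/Ezh2Δ/Δ LSK or JAK2V617F MEP and 1 without JAK2V617F LSK, Ezh2Δ/Δ MEP or JAK2V617F/Ezh2Δ/Δ MEP. Of 1152 values of single genes under other settings 1122 kept their direction and side of the threshold, 11 lost it, 19 gained it and 0 reversed. The cause of these changes was not tested. A fit with the matched pairs as a block, added after seeing the data, gave the same counts for the 10 genes for cell type (2), JAK2V617F (0) and both interactions (0).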

Other observations

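The genes next to the 10 on their chromosomes were looked at after the values were seen, as the nearest tested gene on each side. None of the 20 neighbours was called for Ezh2 deletion in either direction with limma, where 0.66% of all tested genes were called higher and 0.0455% lower. An unadjusted p under 0.05 was found for 5 of the 20, and for 18.0% of all tested genes. Their median difference was -0.13. The largest was AA467197, beside Slc30a4, at 2.05 (SE 0.35, adjusted p = 0.0525 with limma), followed by Gpx2, which encodes a glutathione peroxidase, beside Rab15 at 1.07 (adjusted p = 0.158). Wnt1, the Wnt ligand gene beside Wnt10b, differed by 0.17, and Fxyd2, beside Fxyd6, by 0.11.

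Alpl, the alkaline phosphatase of bone that was among the stromal markers, stood apart from Col1a1 and Cdh5, which were dim on all 8 arrays. It read -0.73 in Ezh2Δ/Δ LSK, -2.54 in JAK2V617F/Ezh2Δ/Δ LSK and -1.06 in Ezh2Δ/Δ MEP, and was dim on the 5 other arrays.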
